A study of Mus musculus with 9 samples.

Results

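Chromosome 8 of the mouse was described gene by gene in 9 RNA libraries of Panc02, a pancreatic ductal adenocarcinoma line. A gene was a member when the deposited tables placed its first exon on chromosome 8 and it had 10 or more counts in at least 3 libraries, with Adcy7 and the ribosomal protein genes (symbols starting Rpl or Rps) left out. This gave 908 members of the 16049 genes in the whole series that passed the same count filter, from Insr at 3122061 to Gm32856 at 129263641 (start positions, GRCm38). Of 2539 annotated genes on the chromosome, 916 passed the filter and 8 of these were left out by name.

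The study asked what loss of VPAC2, a receptor for vasoactive intestinal peptide encoded by Vipr2, does to the growth of these tumour cells. There were 3 groups of 3 libraries, all from cells grown in DMEM with 10% serum and given no treatment. The parental group had the genotype label Wild type. The group called KO_1E7 here was titled VPAC2KO 1E7 and labelled VPAC2 knock out, and the group called CRISPR_1G2 was titled CRISPR 1G2 and labelled CRISPR-wild type. Each of the 2 edited groups was 1 clone, so that loss of VPAC2 and other differences of a clone cannot be told apart. The series text counts both clones among the knockout cells, whereas the genotype labels do not, and the labels were followed. Nothing stated that the replicates were separate cultures, so the spread between libraries on which each p-value rests may be technical.

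Tumour cell lines often carry extra or missing copies of whole chromosomes or arms, and single-cell cloning fixes whichever karyotype the founder cell had. When the copy number of a chromosome changes, transcripts of many of its genes tend to shift together by a modest factor, while single genes can also be silenced or switched on for reasons of their own. Mouse chromosome 8 holds genes of many roles, among them the metallothioneins Mt1 and Mt2, the cadherins Cdh1, Cdh3, Cdh11 and Cdh13, the AP-1 genes Junb and Jund, and Insr. DNA copy number was not analysed here.

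Libraries held 27898705 to 51878289 counts on genes, and the median member had 443 to 1078 counts in a library. Vipr2, the edited gene, lies on another chromosome and was barely read. Parental 1, 2 and 3 gave it 6, 3 and 12 counts, the KO_1E7 libraries 1, 2 and 1, and the CRISPR_1G2 libraries 1, 13 and 12, too few to check the labels. Parental 3 and CRISPR_1G2 3 stood apart from the other libraries of their groups, and in parental 3 a single ribosomal RNA gene, CT010467.1, took 15.3% of the counts against 0.465% to 1.04% elsewhere. Of 7 ductal and epithelial markers, 7 were detected, with a summed level of 885 to 2099 CPM (counts scaled to the effective library size). Fibroblast markers summed to 15.7 to 47.4 CPM, immune markers to 2.82 to 11.9 CPM and endothelial markers to 0.581 to 1.37 CPM, and the islet genes Gcg and Ins1 were at 0 throughout. Acinar markers, mainly Cela1, summed to 1.16 to 2.87 CPM in the parental and CRISPR_1G2 libraries and to 7.39 to 13.2 CPM in KO_1E7. Their part in the results was not tested, and in bulk RNA fewer cells of a type and less RNA per cell cannot be told apart.

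Promoter sequence is given for 4 members on which the results turn: the adjacent metallothionein genes Mt2 and Mt1, which moved together, Mast1, which was low in KO_1E7, and Kcnk1, which was low in CRISPR_1G2. Each run covers 250 bases before and 30 bases after the RefSeq start on GRCm38.p6, 5′ to 3′ on the gene's strand, and capitals mark matches to TGCGCNC, a core of the metal response element, on either strand.
Mt2, chr8:94172368-94172647, plus strand: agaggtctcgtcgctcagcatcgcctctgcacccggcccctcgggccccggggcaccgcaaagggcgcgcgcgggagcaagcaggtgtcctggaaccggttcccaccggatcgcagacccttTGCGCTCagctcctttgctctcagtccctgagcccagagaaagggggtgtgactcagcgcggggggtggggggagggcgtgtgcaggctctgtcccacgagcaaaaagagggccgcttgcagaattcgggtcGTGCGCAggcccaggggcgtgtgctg
Mt1, chr8:94178839-94179118, plus strand: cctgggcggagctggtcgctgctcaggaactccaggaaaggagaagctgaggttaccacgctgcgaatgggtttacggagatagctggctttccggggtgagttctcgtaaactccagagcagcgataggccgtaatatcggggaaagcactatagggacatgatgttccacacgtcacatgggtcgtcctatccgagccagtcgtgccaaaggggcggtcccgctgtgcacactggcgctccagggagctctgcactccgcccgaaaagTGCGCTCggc
Mast1, chr8:84937324-84937603, minus strand: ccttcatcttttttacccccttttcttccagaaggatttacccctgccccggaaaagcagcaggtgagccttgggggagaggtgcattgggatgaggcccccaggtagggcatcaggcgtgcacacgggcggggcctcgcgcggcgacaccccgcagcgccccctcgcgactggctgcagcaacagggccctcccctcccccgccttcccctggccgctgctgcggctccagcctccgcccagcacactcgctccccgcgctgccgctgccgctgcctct
Kcnk1, chr8:125994852-125995131, plus strand: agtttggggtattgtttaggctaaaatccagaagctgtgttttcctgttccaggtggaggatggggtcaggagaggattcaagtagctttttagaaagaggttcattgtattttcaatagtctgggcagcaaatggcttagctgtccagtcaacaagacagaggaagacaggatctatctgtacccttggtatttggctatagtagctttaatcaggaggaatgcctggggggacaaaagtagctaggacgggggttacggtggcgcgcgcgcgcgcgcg

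Mt2 held this motif at bases 123 to 129 and, on the opposite strand, at 255 to 261, and Mt1 held it at bases 271 to 277, counted from the first base shown. The second Mt2 match and the Mt1 match lie after the RefSeq start used for the window, at offsets 4 to 10 and 20 to 26. Other starts of these genes were not looked at, so the place of the matches relative to them is not known. In Mast1 and Kcnk1 these letters were not in the window. Only this form was searched. Stretches that differ from it by a single letter, such as tgcacac in Mast1 and tgcactc in Mt1, were not marked. Nothing is read from the absence in Mast1 and Kcnk1. RefSeq gave 626 promoter entries for 507 of the 908 members. Of those entries 25.1% held TGCGCNC, against 14.4% of 32851 promoters of the same length over the genome. The cAMP response element TGACGTCA was in 4.47% of the member entries and 1.74% of all, and the TATA motif TATAAA in 7.67% and 13.1%, both strands searched. The members had passed a count filter and the genome-wide promoters had not, so these shares compare unlike sets. Nothing about chromosome 8 is read from them. None of these matches was shown to be a site in use. Mfhas1, another member on which the results turn, is named only.

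Transcripts of chromosome 8 stood higher in every KO_1E7 library than in every other library. For each library the level of the chromosome was taken as the median, over 884 tested members, of the log2 CPM less the gene's own mean over the 9 libraries, with the same median over all 15766 genes tested set to 0. Parental 1, 2 and 3 stood at -0.10, -0.11 and -0.08 on this log2 scale, and the CRISPR_1G2 libraries at -0.15, -0.14 and -0.10. The KO_1E7 libraries stood at 0.29, 0.17 and 0.23. Group means were -0.10 ± 0.01 (SD, n = 3) in parental, 0.23 ± 0.06 in KO_1E7 and -0.13 ± 0.02 in CRISPR_1G2. Chromosome 8 was picked because its genes were as a whole higher in KO_1E7, so this separation describes the choice and carries no test.

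The same was seen in how many members moved. In KO_1E7 1, 2 and 3, 77.8%, 70.4% and 74.4% of the tested members lay above their own 9-library mean. In parental the shares were 34.5%, 34.6% and 44.2%, and in CRISPR_1G2 30.7%, 32.0% and 43.8%. The members together took 6.14%, 5.59% and 5.97% of all gene counts in KO_1E7, 4.58%, 4.49% and 3.61% in parental and 4.38%, 4.40% and 4.75% in CRISPR_1G2, where the lowest share, in parental 3, is that of the library with the large CT010467.1 fraction. KO_1E7 2, with the lowest of the KO_1E7 levels, was also the most deeply sequenced library, and the part of depth in this was not tested.

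**Figure D1:**
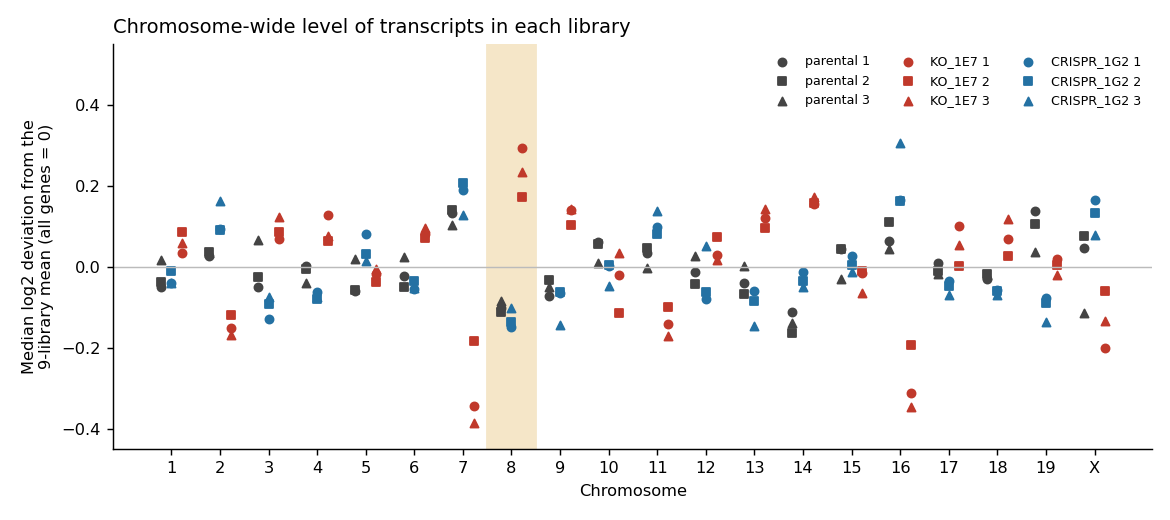
Median log2 deviation of the tested genes of each chromosome from their 9-library mean (all genes set to 0), with 1 point per library, colour for group and shape for replicate number. On chromosome 8, shaded, the KO_1E7 points at 0.17 to 0.29 lie above the other 6 libraries, which lie at -0.15 to -0.08.

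Set against the other chromosomes in the plot of chromosome levels, chromosome 8 had the highest median log2 difference of KO_1E7 from parental among 20 chromosomes, at 0.34 after the median of all genes was subtracted. Chromosome 14 followed with 0.31 over 505 genes, while chromosomes 7 and 16 had -0.42 and -0.35. Chromosome 8 differed little between CRISPR_1G2 and parental, with -0.02, whereas chromosome 19 had -0.24 and chromosome 16 had 0.14 in that comparison. These chromosome medians were not tested against each other.

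The higher level of KO_1E7 spanned the length of the chromosome. In 13 consecutive windows of 10 Mb, the median log2 difference from parental (less that of all genes) was 0.50, 0.42, 0.48, 0.40 and 0.56 in the first 5, 0.49 and 0.33 in the next pair, 0.23 and 0.25 between 70 and 90 Mb, and 0.38, 0.34, 0.36 and 0.31 in the last 4. All 13 medians were above 0, including the sixth window, which holds 13 genes. In KO_1E7 against CRISPR_1G2 they lay between 0.29 and 0.55. In CRISPR_1G2 against parental they lay between -0.08 and 0.07, and 23.1% of them were above 0.

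**Figure D2:**
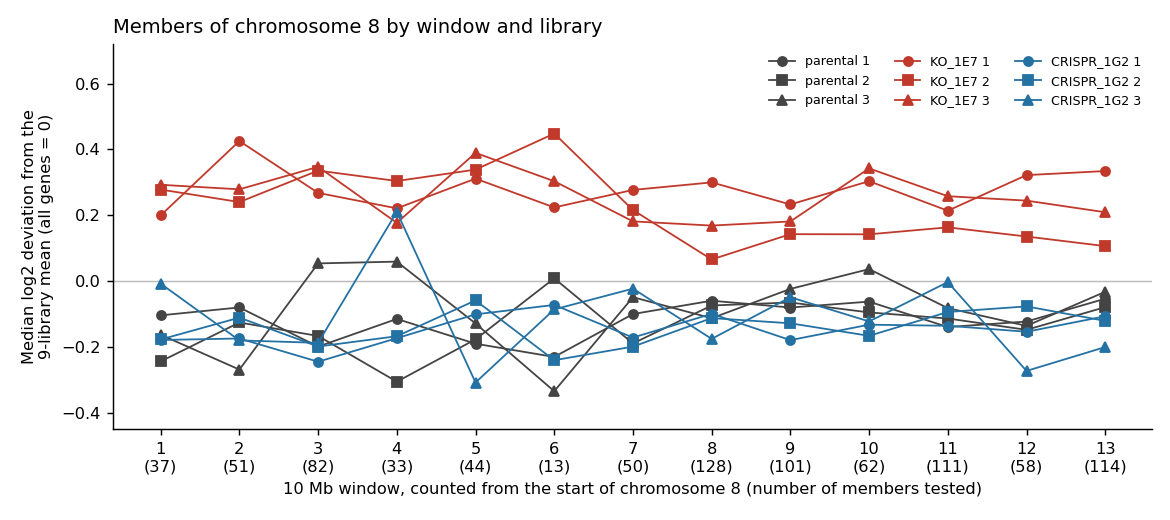
Median log2 deviation of the tested members from their 9-library mean (all genes set to 0) in each 10 Mb window, 1 line per library, with the number of members under each window number. In every window but the fourth the 3 KO_1E7 lines lie above the 6 others. In the fourth, CRISPR_1G2 3 reaches 0.21 and the lowest KO_1E7 library stands at 0.18.

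The plot of levels by window shows the exception, in window 4, which runs from 30 to 40 Mb. CRISPR_1G2 3 stood at 0.21 there, level with KO_1E7 1 at 0.22 and above KO_1E7 3 at 0.18. Its median difference between KO_1E7 and parental was 0.40, but the lower quartile of its 33 genes was -0.46 and 60.6% lay above 0, the lowest share of any window. In windows of 5 Mb its second part, from 35 to 40 Mb, had a median of -0.63 over only 11 genes, against 0.42 over 22 genes in the first part.

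Members within the chromosome also differed by base composition and level. From the start to 70 Mb, a position chosen after the profile was seen, the median difference of KO_1E7 from parental was 0.43 over 310 genes, and beyond it 0.30 over 574 genes. Genes of the second stretch had a higher median GC content (53.3% against 47.5%) and a higher median level (24.8 against 13.3 CPM). The KO_1E7 levels were 0.29, 0.30 and 0.30 in the first stretch and 0.29, 0.12 and 0.20 in the second, so that the 3 libraries were nearly level in the first and spread in the second. In 3 classes of GC content, equal in size over all genes, members had medians of 0.48, 0.33 and 0.29 from low to high GC, and other genes 0.07, -0.02 and -0.13. In 3 such classes of expression level the members had 0.24, 0.34 and 0.38 from low to high, and other genes -0.09, -0.01 and 0.01. In each of these classes the members lay above the other genes, and the part of GC content in the profile was not tested further.

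Against parental, KO_1E7 had many modest rises on chromosome 8 and few, larger falls. With the quasi-likelihood test of edgeR and an adjusted p below 0.05, 84 of 884 tested members were called, which is 9.50% beside 5.42% of all genes tested. Of these, 75 were higher in KO_1E7 (8.48% of members, 2.54% of all genes) and 9 lower (1.02% of members, 2.87% of all genes). In 337 members all KO_1E7 libraries lay above all parental ones (38.1%, beside 17.2% of all genes) and in 40 below (4.52%, beside 17.3%). Because the chromosome was picked on this contrast, nothing further is read from these shares. The 75 rises had a median log2 fold change of 0.75, with quartiles of 0.57 and 0.87, whereas the 9 falls had a median of -1.76. Over all tested members the median was 0.34 after centring, a 1.27-fold difference, with quartiles of 0.05 and 0.62, and 688 members (77.8%) lay above 0.

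The number of calls depended heavily on the libraries entered. Parental 1, 2 or 3 left out gave 4, 24 and 24 members called (0.445%, 2.67% and 2.68% of members, beside 1.02%, 2.13% and 2.10% of all genes tested). KO_1E7 1, 2 or 3 left out gave 2, 40 and 0 (0.224%, 4.46% and 0%, beside 0.299%, 3.62% and 0.145%). Without parental 1, KO_1E7 1 or KO_1E7 3 the share of members called was thus below that of all genes. Leaving out CRISPR_1G2 1, 2 or 3 gave 32, 26 and 174 (3.55%, 2.88% and 19.4%, beside 2.31%, 2.19% and 12.2%). Where the count was 0, edgeR still had 213 members at an unadjusted p below 0.05, beside 277 with all libraries. DESeq2 with all libraries called 165 (18.2% of members, beside 6.63% of all genes that it tested). It was run without the expression filter of edgeR, so its share of all genes rests on a larger base than the others. Without parental 3 and CRISPR_1G2 3 together, 277 members were called, 31.3% of those tested, beside 21.03% of all genes tested. The median difference moved far less, between 0.32 and 0.38 when any 1 library was left out, and over the 9 pairings of a KO_1E7 with a parental library it ran from 0.28 to 0.40. KO_1E7 1 and parental 1, whose deposited names share a date, differed by 0.40, and KO_1E7 3 and parental 3, whose names share the word NSG, by 0.31.

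**Figure D3:**
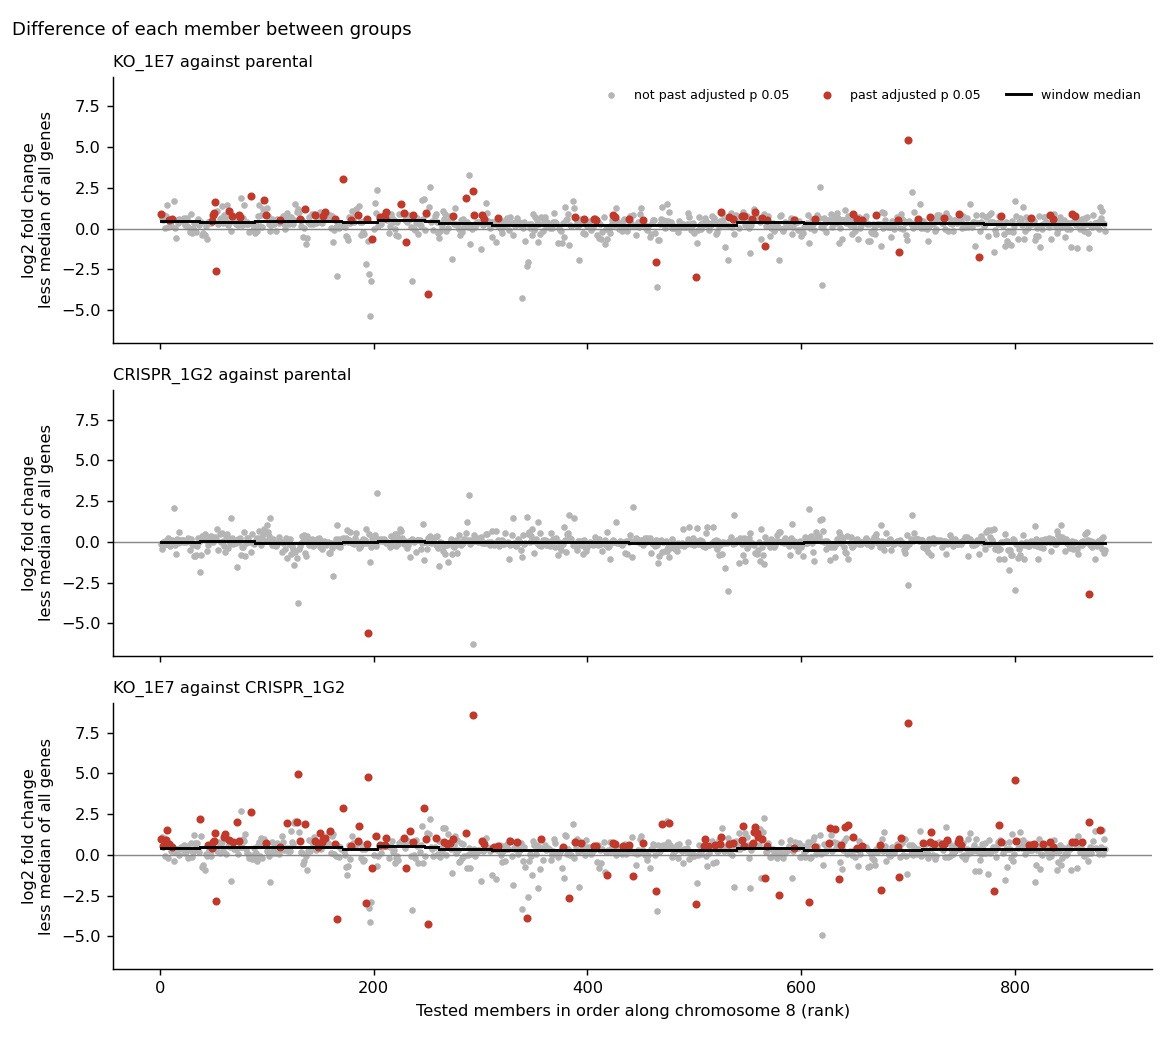
Log2 fold change of each tested member less the median of all genes (vertical axis), in order along chromosome 8 (horizontal axis, rank), for the 3 comparisons; red points passed an adjusted p of 0.05 and black bars are 10 Mb window medians. Window medians lie above 0 throughout in both comparisons of KO_1E7 and near 0 in CRISPR_1G2 against parental, where 2 members were called.

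In the plot of single members each of the 13 windows held at least 1 rise, with at most 9. Tmco3, a transmembrane protein gene of the cation-proton antiporter family at 13288190 to 13322924, stood at 30.2, 28.6 and 24.5 CPM in parental 1, 2 and 3, at 62.6, 54.8 and 56.8 in KO_1E7 and at 28.3, 32.2 and 32.4 in CRISPR_1G2. All KO_1E7 values lay above all others, with a log2 fold change of 1.06 ± 0.13 (SE, n = 3 per group, adjusted p = 0.00912) against parental. Hook3, whose protein links dynein to its cargo, had 56.0, 60.9 and 44.7 CPM in parental, 98.1, 107 and 115 in KO_1E7 and 58.9, 58.8 and 44.1 in CRISPR_1G2, a fold change of 0.99 ± 0.17, adjusted p = 0.0179. Phkb, the regulatory beta subunit of phosphorylase kinase, had 53.4, 54.3 and 40.5 CPM in parental, 102, 91.0 and 104 in KO_1E7 and 49.6, 54.6 and 36.1 in CRISPR_1G2 (1.00 ± 0.18, adjusted p = 0.0231). For both genes the CRISPR_1G2 libraries overlapped parental and KO_1E7 lay above them.

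Tacc1, a centrosome and microtubule-associated protein gene, rose more. It had 87.7, 95.4 and 96.7 CPM in parental, 272, 130.2 and 227 in KO_1E7 and 51.9, 57.7 and 63.0 in CRISPR_1G2, the 3 groups not overlapping, with 1.17 ± 0.24, adjusted p = 0.0327 on the log2 scale in KO_1E7 against parental. In CRISPR_1G2 against parental it was -0.70 ± 0.24, which did not pass (adjusted p = 0.532). Xkr5, of the XK family of membrane proteins, had 6.28, 7.26 and 3.70 CPM in parental, 19.6, 23.6 and 24.3 in KO_1E7 and 4.29, 5.52 and 1.53 in CRISPR_1G2 (1.97 ± 0.43, adjusted p = 0.0383). Psd3, a guanine nucleotide exchange factor gene for ARF6, had 14.9, 20.01 and 7.98 CPM in parental, 49.7, 52.0 and 53.0 in KO_1E7 and 21.8, 25.6 and 15.1 in CRISPR_1G2 (1.85 ± 0.32, adjusted p = 0.0194). In both the KO_1E7 values stood clear of the other 6 libraries. For Tmco3, Hook3, Phkb, Tacc1, Xkr5 and Psd3, 6 of 6 calls were lost with 1 library left out (adjusted p from 0.0505 to 0.151), and each library but CRISPR_1G2 3 ended at least 1 when left out by itself.

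Among members at low level with the largest rises were Atp7b, the copper-transporting ATPase gene mutated in Wilson disease, and Lrp2bp, whose protein binds megalin. Atp7b had 0.437, 0.911 and 0.862 CPM in parental, 2.12, 3.60 and 1.76 in KO_1E7 and 0.944, 1.13 and 1.77 in CRISPR_1G2 (1.76 ± 0.43, adjusted p = 0.0496). Lrp2bp had 0.628, 0.663 and 0.862 CPM in parental, 1.92, 2.03 and 2.06 in KO_1E7 and 1.20, 1.61 and 0.641 in CRISPR_1G2 (1.48 ± 0.36, adjusted p = 0.0492). In each, KO_1E7 did not overlap parental. With the replicate number as a block, Lrp2bp no longer passed. Gm45774 (1.01 ± 0.24, adjusted p = 0.0473) is antisense to Mt2, and without strand its reads cannot be told apart from that gene. Gm15347 (1.59 ± 0.36, adjusted p = 0.0409) lies opposite the end of Atp11a and the start of Mcf2l, and reads in the stretches it shares with them cannot be assigned without strand. In these 4 genes, 4 of 4 calls were lost with 1 library left out (adjusted p from 0.0617 to 0.194), and each library but CRISPR_1G2 3 ended at least 1 when left out by itself.

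A few members were far lower in KO_1E7 than in both other groups. Mast1, a microtubule-associated serine/threonine kinase gene whose promoter is printed above, had 5.25, 3.92 and 5.64 CPM in parental, 0.283, 0.853 and 0.716 in KO_1E7 and 4.29, 4.70 and 6.47 in CRISPR_1G2. The KO_1E7 values lay below the rest, with -2.98 ± 0.41 (SE, n = 3 per group, adjusted p = 0.0119) on the log2 scale. Mcf2l, a guanine nucleotide exchange factor gene, had 5.82, 6.16 and 6.09 CPM in parental, 0.650, 1.69 and 0.478 in KO_1E7 and 6.174, 6.30 and 8.34 in CRISPR_1G2 (-2.65 ± 0.44, adjusted p = 0.0172). Vegfc, the growth factor of lymphatic vessels, had 1.37, 0.994 and 1.89 CPM in parental, 0.0283, 0.171 and 0.0298 in KO_1E7 and 1.23, 0.756 and 3.08 in CRISPR_1G2. Summed over the libraries this was 154 counts in parental and 11 in KO_1E7, a scaled ratio of 0.0639 (exact 95% interval 0.0312 to 0.118, counting error only), and a fold change of -4.02 ± 0.77, adjusted p = 0.0270. In Mcf2l and Vegfc too every KO_1E7 library lay below the other 6. Mast1 overlaps Dnase2a on the opposite strand, which the counts cannot separate.

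Smaller falls against parental were found in Cpne2, a calcium-dependent membrane-binding protein gene (-1.12 ± 0.22, adjusted p = 0.0286), Acsl1, a long-chain fatty acid-CoA ligase gene (-0.87 ± 0.21, adjusted p = 0.0497), and Prag1, whose protein scaffolds tyrosine kinases (-0.66 ± 0.16, adjusted p = 0.0465). Cpne2 had 18.3, 16.8 and 14.7 CPM in parental, 9.66, 7.58 and 5.64 in KO_1E7 and 18.5, 20.1 and 24.3 in CRISPR_1G2. Acsl1 had 9.51, 6.98 and 9.26 CPM in parental, 4.69, 4.45 and 4.95 in KO_1E7 and 8.06, 7.09 and 10.1 in CRISPR_1G2. Neither overlapped between KO_1E7 and the other groups. Among the falls of Mast1, Mcf2l, Vegfc, Cpne2, Acsl1 and Prag1, 6 of 6 calls were lost with 1 library left out (adjusted p from 0.0520 to 0.207), and each library but CRISPR_1G2 3 ended at least 1 when left out by itself. Mast1 was lost only without KO_1E7 3, at 0.0760. The remaining falls among the 9 were Nqo1, described with the stress genes, and 2210011C24Rik and Atp2c2, a Golgi calcium and manganese pump gene; the last pair fell outside the rule for named genes and were chosen after their values were seen.

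In KO_1E7 against parental, 1 stretch went against most of the chromosome. From Mfhas1 to Lonrf1 (35587798 to 36249516) the 6 tested genes in a row were all below the general median in KO_1E7 against parental, the longest such run, with a median of -1.78, although Lonrf1 itself lay only at -0.04. Prag1 was the only member of the run called in that contrast. Ppp1r3b, a glycogen-targeting subunit of protein phosphatase 1 just before the run, had 3.61, 3.40 and 3.17 CPM in parental, 0.254, 1.76 and 0.0895 in KO_1E7 and 5.70, 5.39 and 6.44 in CRISPR_1G2. Cldn23, a tight junction claudin gene within it, had 0.765, 0.331 and 3.92 CPM in parental, 0.141, 0.246 and 0.119 in KO_1E7 and 1.31, 1.04 and 1.71 in CRISPR_1G2. Both had KO_1E7 below all other libraries, at -2.22 ± 0.79 (adjusted p = 0.135) and -3.24 ± 0.87 (adjusted p = 0.0659), neither past the threshold. Gm19410 ranged from 0.359 to 18.96 CPM within parental alone. Genes next to the run did not all go this way. Eri1, a histone mRNA exonuclease gene between Ppp1r3b and Mfhas1, had 85.1, 82.0 and 68.6 CPM in parental and 113, 112 and 118 in KO_1E7 (0.54 ± 0.12, adjusted p = 0.0375). Dlc1, a tumour suppressor gene after the run, had 3.77, 2.95 and 4.92 and 15.6, 7.18 and 11.6 (1.56 ± 0.43, adjusted p = 0.0697, not past the threshold). Cldn23, Gm19410, Eri1 and Dlc1 fell outside the rule for named genes and were picked by position after their values were seen. The longest run above the general median was the 23 genes from Letm2 to 2310008N11Rik (25578490 to 26884380), with a median of 0.68. In KO_1E7 against CRISPR_1G2 the run from Mfhas1 did not recur, since Mfhas1 lay at 4.77 after centring. There the longest run below was the 4 genes from Mak16 to Gm26578 (31159463 to 32015759), with a median of -0.70. Whether runs of these lengths are unusual was not tested.

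Grouped by known role, most tested members of each of the 11 lists lay above the general median in KO_1E7 against parental, and against CRISPR_1G2 this held for each list but cAMP signalling, with 3 of 6. Of 150 genes in 11 lists, 135 were members and 134 were tested. Against parental 107 of the 134 lay above 0, 16 were called higher and 3 lower, where 2.54% of all genes tested were called higher and 2.87% lower. Against CRISPR_1G2 105 lay above 0, 26 were higher and 4 lower, where 5.71% of all genes were higher and 7.03% lower. Of all 884 tested members, 77.8% lay above 0, 8.48% were higher and 1.02% lower against parental. Against CRISPR_1G2 the shares were 77.0%, 15.3% and 2.15%. The shares of all genes and of all members are both the background of each list described next. Most genes of a list above 0 is thus what the chromosome shows as a whole. Since the chromosome was picked on these contrasts, nothing further is read from the counts. In CRISPR_1G2 against parental 59 lay above 0, and edgeR and DESeq2 both called 0, with 9 at an unadjusted edgeR p below 0.05. The median of all genes tested is 0 by construction.

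**Figure D4:**
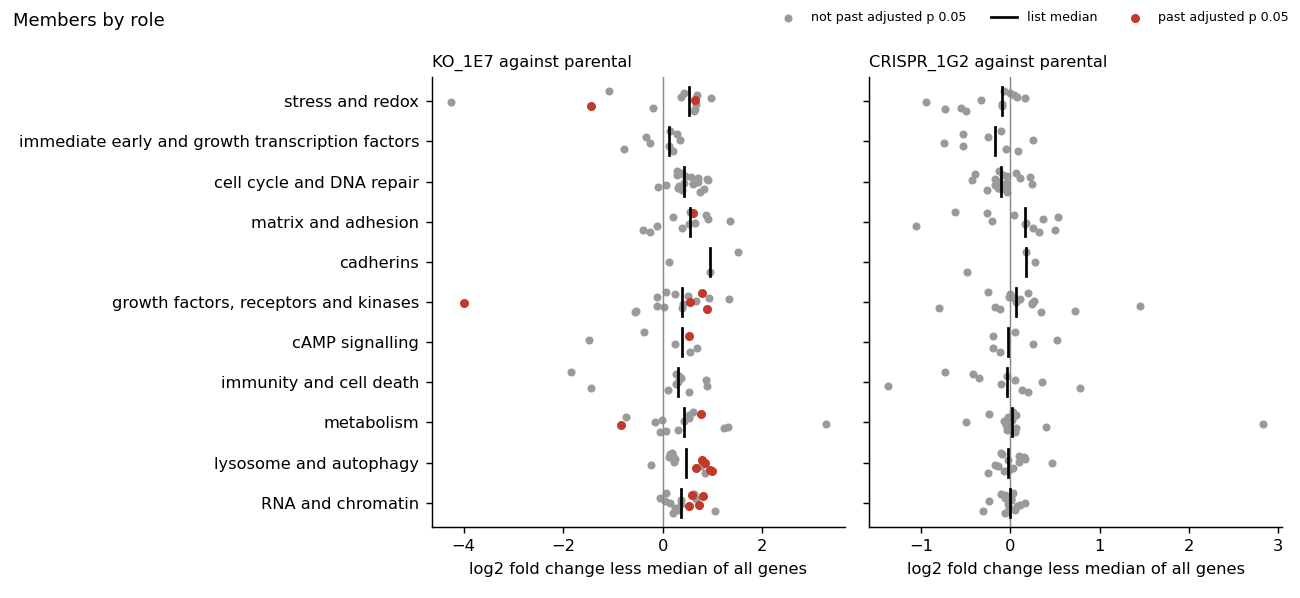
Log2 fold change less the median of all genes for the tested members of 11 role lists, in KO_1E7 against parental (left) and CRISPR_1G2 against parental (right, on a narrower axis); red points passed an adjusted p of 0.05 and black bars are list medians. On the left all 11 list medians lie above 0, from 0.13 to 0.96, and on the right they lie between -0.17 and 0.17.

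Lysosome and autophagy genes were the list with the most calls against parental: 5 of 14 were higher (beside 8.48% of all tested members and 2.54% of all genes), 0 lower, and 13 lay above 0 (median 0.46, beside 0.34 over all members). Asah1, acid ceramidase, had 211, 198 and 169 CPM in parental, 379.9, 353 and 397 in KO_1E7 and 195, 200.2 and 161 in CRISPR_1G2. The KO_1E7 values were clear of the rest, at 0.97 ± 0.14 (SE, n = 3 per group, adjusted p = 0.0128) against parental and 1.02 ± 0.14, adjusted p = 0.00442 against CRISPR_1G2. Map1lc3b, the autophagosome protein LC3B, had 119, 111 and 122 CPM in parental, 236, 166 and 193 in KO_1E7 and 103, 113 and 134 in CRISPR_1G2 (0.76 ± 0.16, adjusted p = 0.0344 against parental). It too did not overlap. The other 3 called against parental, named after their values were seen, were the lysosomal hydrolase genes Aga (0.92 ± 0.15), Galns (0.64 ± 0.14) and Pla2g15 (0.82 ± 0.14).

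Against CRISPR_1G2, 6 lysosome and autophagy genes were higher. Lamp1, the major lysosomal membrane glycoprotein, had 413, 337 and 463 CPM in parental, 886, 517 and 743 in KO_1E7 and 263, 295 and 476 in CRISPR_1G2, and passed against CRISPR_1G2 (1.05 ± 0.27, adjusted p = 0.0390) but not against parental (0.82 ± 0.27, adjusted p = 0.112). Mcoln1, the lysosomal calcium channel TRPML1, gave 0.86 ± 0.19, adjusted p = 0.0244 against CRISPR_1G2 and 0.74 ± 0.19 (adjusted p = 0.0617, not passed) against parental. The calls of Asah1 and Map1lc3b against parental depended on single libraries, and 2 of 2 calls were lost with 1 library left out (adjusted p from 0.0545 to 0.131), and each library but KO_1E7 2 and CRISPR_1G2 3 ended at least 1 when left out by itself. Against CRISPR_1G2, for Asah1, Map1lc3b, Lamp1 and Mcoln1, 3 of 4 calls were lost with 1 library left out (adjusted p from 0.0636 to 0.136), and parental 1, KO_1E7 1, KO_1E7 3, CRISPR_1G2 1 and CRISPR_1G2 2 each ended at least 1 when left out by itself. Asah1 against CRISPR_1G2 passed under every alternative run.

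Genes of RNA processing and chromatin had 16 of 17 above 0 against parental, with 4 higher and 0 lower (median 0.37). Cnot1, the scaffold of the CCR4-NOT deadenylase, had 345, 399 and 358 CPM in parental, 492, 517 and 557 in KO_1E7 and 398, 376 and 402 in CRISPR_1G2 (0.51 ± 0.11, adjusted p = 0.0398). Tcf25, whose protein works in ribosome-associated quality control, had 269, 285 and 211 CPM in parental, 461, 408 and 446 in KO_1E7 and 289, 285 and 203 in CRISPR_1G2 (0.78 ± 0.18, adjusted p = 0.0396). In both, KO_1E7 lay above all other libraries. The rest were Nudt21, a cleavage factor subunit that sets poly(A) site choice (0.56 ± 0.13, adjusted p = 0.0396), and Cnot7, a deadenylase subunit named after its value was seen (0.70 ± 0.16). Ash2l, a core subunit of histone H3K4 methyltransferases, had 107, 101 and 56.8 CPM in parental, 185, 162 and 190.0 in KO_1E7 and 90.8, 86.0 and 40.5 in CRISPR_1G2 and passed only against CRISPR_1G2 (1.30 ± 0.33, adjusted p = 0.0354), where 5 of the 17 were higher. Its parental 3 and CRISPR_1G2 3 values were the lowest of their groups.

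Cell cycle and DNA repair genes had 18 of 19 above 0 against parental (median 0.42). Against parental edgeR called 0 of them, with 11 higher at an unadjusted p below 0.05, and DESeq2 called 6, all higher. Against CRISPR_1G2 all 19 lay above 0 and 4 were higher: Cdt1, which licenses replication origins (0.60 ± 0.12, adjusted p = 0.0150), Cdc16, a subunit of the anaphase-promoting complex (0.78 ± 0.17, adjusted p = 0.0203), Hmgb2, a chromatin protein of dividing cells (1.01 ± 0.27, adjusted p = 0.0439), and Cdk10 (0.66 ± 0.12, adjusted p = 0.0111). Hmgb2 had 332, 438 and 229.6 CPM in parental, 618, 566 and 629 in KO_1E7 and 369, 329.5 and 205 in CRISPR_1G2, without overlap of KO_1E7 with the others. Among Cnot1, Nudt21, Tcf25, Ash2l, Hmgb2, Cdc16, Cdt1 and Cdk10 against CRISPR_1G2, 8 of 8 calls were lost with 1 library left out (adjusted p from 0.0506 to 0.175), and each library but parental 3 ended at least 1 when left out by itself. Against parental, for Cnot1, Nudt21 and Tcf25, 3 of 3 calls were lost with 1 library left out (adjusted p from 0.0603 to 0.179), and each library but CRISPR_1G2 3 ended at least 1 when left out by itself.

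Growth factor, receptor and kinase genes were mixed, with 12 of 17 above 0 against parental, 3 higher and 1 lower, the last being Vegfc. Insr, the insulin receptor and the first member along the chromosome, had 75.4, 69.7 and 75.3 CPM in parental, 100.1, 169 and 134 in KO_1E7 and 74.7, 67.0 and 64.4 in CRISPR_1G2 (0.87 ± 0.18, adjusted p = 0.0339). Ikbkb, the kinase that activates NF-kappaB, had 56.1, 51.0 and 55.5 CPM in parental, 73.4, 83.5 and 75.2 in KO_1E7 and 59.1, 59.4 and 54.0 in CRISPR_1G2 (0.51 ± 0.11, adjusted p = 0.0375). Both were above all other libraries in KO_1E7. Rasa3, a RAS GTPase-activating protein gene, gave 0.75 ± 0.17, adjusted p = 0.0389. The cAMP list, closest to the signalling of VPAC2, had 4 of 6 above 0 and 1 higher against parental, Gipc1 (0.51 ± 0.12, adjusted p = 0.0412), a scaffold for receptor trafficking. Crtc1, a CREB coactivator gene, was higher against CRISPR_1G2 (0.84 ± 0.22, adjusted p = 0.0378) but did not pass against parental (0.67 ± 0.21, adjusted p = 0.105). For Insr, Ikbkb, Rasa3 and Gipc1 against parental, 4 of 4 calls were lost with 1 library left out (adjusted p from 0.0555 to 0.171), and each library but CRISPR_1G2 3 ended at least 1 when left out by itself. Against CRISPR_1G2, for Insr, Ikbkb, Gipc1 and Crtc1, 4 of 4 calls were lost with 1 library left out (adjusted p from 0.0502 to 0.143), and each library but parental 3 ended at least 1 when left out by itself.

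Stress and redox genes held members that went both ways. Mt1 and Mt2, the metal-binding metallothioneins whose promoters are printed above, were ordered the same way: Mt2 had 269, 190.5 and 283 CPM in parental, 477, 277 and 380.3 in KO_1E7 and 142, 139 and 173 in CRISPR_1G2, and Mt1 had 302, 320.5 and 369 CPM in parental, 649, 367 and 491 in KO_1E7 and 227, 222 and 262 in CRISPR_1G2. CRISPR_1G2 lay below parental without overlap in both, and KO_1E7 overlapped parental. Against CRISPR_1G2 they were higher in KO_1E7, at 1.32 ± 0.23, adjusted p = 0.0100 and 1.08 ± 0.20, adjusted p = 0.0133. Against parental they did not pass, at 0.61 ± 0.23 (adjusted p = 0.148) and 0.60 ± 0.20 (adjusted p = 0.117). Gm45774, antisense to Mt2, had the same order and cannot be separated from it.

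Herpud1, which acts in the disposal of misfolded proteins from the endoplasmic reticulum, had 129, 113 and 99.4 CPM in parental, 159, 191 and 172 in KO_1E7 and 93.6, 93.3 and 88.3 in CRISPR_1G2, with no overlap among the groups. It was higher in KO_1E7 against parental (0.61 ± 0.13, adjusted p = 0.0360) and against CRISPR_1G2 (0.93 ± 0.13, adjusted p = 0.00510). Nqo1, a quinone reductase and NRF2 target gene, was low throughout, at 0.628, 0.690 and 0.556 CPM in parental, 0.198, 0.208 and 0.269 in KO_1E7 and 0.472, 0.725 and 0.580 in CRISPR_1G2. It was lower in KO_1E7 against parental (-1.47 ± 0.34, adjusted p = 0.0421) and against CRISPR_1G2 (-1.39 ± 0.34, adjusted p = 0.0316). For Herpud1 and Nqo1 against parental, 2 of 2 calls were lost with 1 library left out (adjusted p from 0.0687 to 0.165), and each library but CRISPR_1G2 3 ended at least 1 when left out by itself. Against CRISPR_1G2, for Herpud1, Nqo1, Mt1 and Mt2, 2 of 4 calls were lost with 1 library left out (adjusted p from 0.0505 to 0.125), and each library but parental 3 ended at least 1 when left out by itself.

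Matrix and adhesion genes had 9 of 12 above 0 against parental with 1 higher, Adam9, a membrane-anchored metalloprotease gene. It had 200.5, 166 and 169.8 CPM in parental, 250.5, 276 and 275 in KO_1E7 and 153, 163 and 137 in CRISPR_1G2 (0.58 ± 0.13, adjusted p = 0.0375). Nrp1, a co-receptor for semaphorins and VEGF, had 55.9, 103 and 80.4 CPM in parental, 269.8, 116 and 211 in KO_1E7 and 60.6, 56.1 and 93.5 in CRISPR_1G2 and passed against CRISPR_1G2 only (1.51 ± 0.35, adjusted p = 0.0266). Cdh1, E-cadherin, had 21.8, 14.7 and 10.1 CPM in parental, 26.6, 47.1 and 15.0 in KO_1E7 and 11.6, 16.3 and 5.83 in CRISPR_1G2, overlapping, and did not pass (0.93 ± 0.49, adjusted p = 0.292). Cdh13, a cadherin held by a lipid anchor, had 52.8, 50.3 and 29.4 CPM in parental, 113, 143 and 115 in KO_1E7 and 62.6, 68.3 and 20.5 in CRISPR_1G2, without overlap of KO_1E7, and did not pass (1.49 ± 0.42, adjusted p = 0.0722). Of 3 tested cadherins edgeR called 0 against parental, with 1 at an unadjusted p below 0.05, and DESeq2 called 1.

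Metabolic genes had 10 of 15 above 0 against parental, with 1 higher and 1 lower. The higher one was Cpe, carboxypeptidase E, at 302, 289 and 290.2 CPM in parental, 563, 442 and 475 in KO_1E7 and 225, 253 and 276 in CRISPR_1G2 (0.75 ± 0.13, adjusted p = 0.0217), and the lower one was Acsl1. For Adam9 and Cpe against parental, 2 of 2 calls were lost with 1 library left out (adjusted p from 0.0551 to 0.160), and each library but CRISPR_1G2 3 ended at least 1 when left out by itself. Against CRISPR_1G2, for Adam9, Cpe and Nrp1, 1 of 3 calls were lost with 1 library left out (adjusted p from 0.0835 to 0.0998), and KO_1E7 1, KO_1E7 3, CRISPR_1G2 1 and CRISPR_1G2 2 each ended at least 1 when left out by itself. Immunity and cell death genes had 9 of 11 above 0 against parental and edgeR called 0 of them, with 4 at an unadjusted p below 0.05, while DESeq2 called 1. Against CRISPR_1G2, Mlkl, the executor of necroptosis, was higher (0.66 ± 0.12, adjusted p = 0.0130) and Irf8, an interferon-regulated transcription factor gene, was lower (-2.27 ± 0.58, adjusted p = 0.0361). Irf8 had 3.50, 2.29 and 0.834 CPM in parental, 0.876, 0.910 and 0.597 in KO_1E7 and 4.76, 5.04 and 1.77 in CRISPR_1G2, so that parental 3, KO_1E7 3 and CRISPR_1G2 3 were the lowest of their groups. For Mlkl and Irf8, 2 of 2 calls were lost with 1 library left out (adjusted p from 0.0503 to 0.148), and parental 2, KO_1E7 1, KO_1E7 2, KO_1E7 3, CRISPR_1G2 1 and CRISPR_1G2 2 each ended at least 1 when left out by itself.

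The immediate early and growth transcription factors had the smallest list median, with 5 of 8 tested above 0 against parental (median 0.13). Both edgeR and DESeq2 called 0 of them in each comparison, with 0 at an unadjusted edgeR p below 0.05 against parental and 1 in each of the other comparisons. Junb, an AP-1 subunit, had 158, 153 and 453 CPM in parental, 290.0, 278.8 and 298 in KO_1E7 and 189.7, 183 and 450.1 in CRISPR_1G2. Parental 3 and CRISPR_1G2 3 were far above the other libraries of their groups. Jund, another AP-1 subunit, had 244, 186 and 311 CPM in parental, 204, 139.7 and 79.8 in KO_1E7 and 211, 181 and 331 in CRISPR_1G2, again highest in parental 3 and CRISPR_1G2 3 but lowest in KO_1E7 3. Neither passed in KO_1E7 against parental (0.18 ± 0.48, adjusted p = 0.857, and -0.81 ± 0.36, adjusted p = 0.217). Whether this list differs from the others was not tested.

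CRISPR_1G2 did not show the shift. Against parental, 2 of 884 members were called (0.226%, beside 0.254% of all genes tested), a share near the background. Both were lower in CRISPR_1G2. All CRISPR_1G2 libraries lay above all parental ones in 41 members (4.64%, beside 6.64% of all genes) and below in 60 (6.79%, beside 6.45%). By edgeR 0 were higher. At an unadjusted p below 0.05 there were 51 members, 17 higher and 34 lower. DESeq2 called 1 higher and 6 lower, together 0.773% of members, beside 0.579% of all genes that it tested. It was run without the expression filter of edgeR, so that base also holds genes the filter removed. The 2 DESeq2 shares therefore compare unlike sets, and nothing is read from them. The median of the members was -0.02 after centring, with quartiles of -0.21 and 0.14, and 395 (44.7%) lay above 0. Over the 9 pairings of libraries it ran from -0.07 to 0.01. CRISPR_1G2 1 and parental 2, whose names share a date, differed by -0.04, and CRISPR_1G2 3 and parental 3, which share the word NSG, by -0.02.

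Mfhas1, which encodes a leucine-rich repeat protein tied to Toll-like receptor signalling and lies in the stretch at window 4, was nearly lost from CRISPR_1G2. It had 7.24, 5.16 and 13.7 CPM in parental, 5.77, 3.32 and 5.82 in KO_1E7 and 0.109, 0.126 and 0.305 in CRISPR_1G2. Every CRISPR_1G2 library was far below the other 6, with -5.55 ± 0.57 (SE, n = 3 per group, adjusted p = 0.00574) on the log2 scale against parental, while KO_1E7 overlapped parental (-0.81 ± 0.44, adjusted p = 0.301). In summed counts it was 945 in parental and 17 in CRISPR_1G2, a scaled ratio of 0.0213 (exact 95% interval 0.0123 to 0.0342, counting error only). Fitted with only the 6 libraries of both groups its adjusted p was 0.0610, the 1 alternative under which it did not pass.

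Kcnk1, a background potassium channel gene near the end of the chromosome (125995170 to 126030685), had 4.32, 5.60 and 2.06 CPM in parental, 1.84, 1.88 and 1.40 in KO_1E7 and 0.291, 0.567 and 0.427 in CRISPR_1G2. The 3 groups did not overlap. Against parental CRISPR_1G2 was lower (-3.20 ± 0.44, adjusted p = 0.0282), and KO_1E7 did not pass (-1.22 ± 0.40, adjusted p = 0.106). For Mfhas1 and Kcnk1 against parental, 1 of 2 calls were lost with 1 library left out (adjusted p from 0.0510 to 0.154), and each library but parental 3 ended at least 1 when left out by itself. The one lost was Kcnk1, which also failed with only the 6 libraries (0.175).

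**Figure D5:**
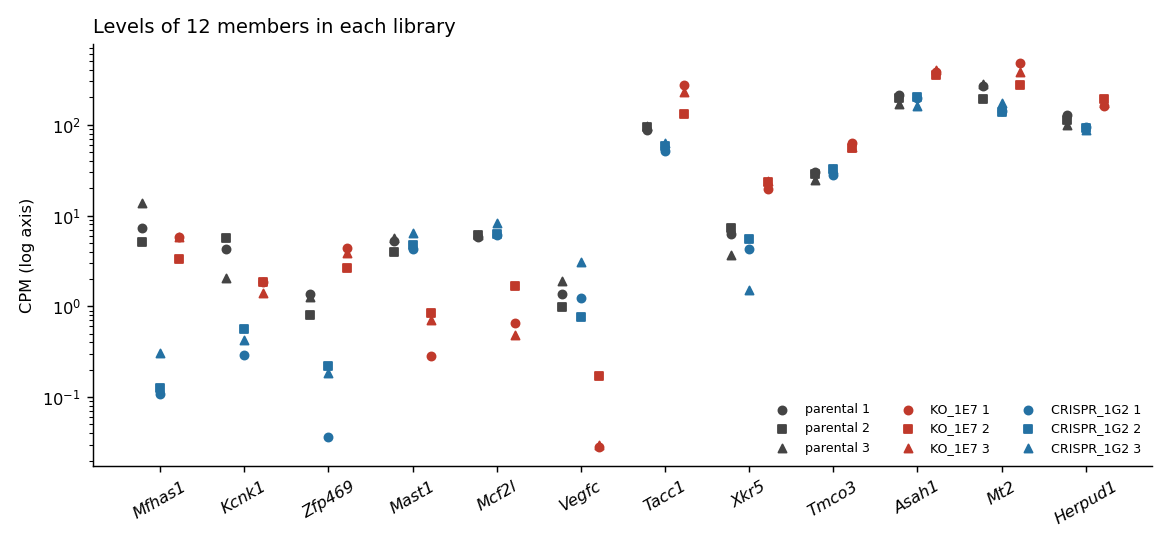
CPM on a log axis of 12 members, 1 point per library, colour for group and shape for replicate number. Mfhas1 and Zfp469 are lowest in CRISPR_1G2, Mast1, Mcf2l and Vegfc are lowest in KO_1E7, and Tmco3, Asah1 and Herpud1 are highest in KO_1E7, as the values in the text give.

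KO_1E7 stood above CRISPR_1G2 much as it stood above parental, with more single genes past the threshold. Of 884 members 154 were called (17.4%, beside 12.7% of all genes tested), 135 higher (15.3%, beside 5.71%) and 19 lower (2.15%, beside 7.03%). In 351 members all KO_1E7 libraries lay above all CRISPR_1G2 ones (39.7%, beside 19.2% of all genes) and in 55 below (6.22%, beside 19.4%). Again nothing is read from these shares. The rises had a median log2 fold change of 0.78, the falls one of -2.27. The median over all members was 0.37 after centring, a 1.30-fold difference, with 681 (77.0%) above 0. Both comparisons share the KO_1E7 libraries, so they are not independent of each other.

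Here too 1 library moved the count by over 1.5 times. It was 91 without parental 1 (10.1% of members, beside 7.81% of all genes tested). Without KO_1E7 1, 2 and 3 it was 37, 101 and 27 (4.15%, 11.3% and 3.01%, beside 3.37%, 8.66% and 2.73%), and without CRISPR_1G2 1 and 2 it was 67 and 60 (7.43% and 6.65%, beside 5.69% and 5.72%). Without KO_1E7 3 the share of members was close to that of all genes. Without parental 3 and CRISPR_1G2 3 together it was 363, or 41.0% of members, beside 29.1% of all genes tested. Of 48 named members called, 18 passed under every alternative run: Adam18, Adam9, Asah1, Cpe, Cpne2, D130040H23Rik, Gm45774, Herpud1, Mast1, Mcf2l, Mfhas1, Mt2, Phkb, Pmfbp1, Tacc1, Tmco3, Xkr5 and Zfp469. Pmfbp1 and D130040H23Rik were kept as members only through KO_1E7, where they are high, so their passing is no support. Among the 18, Tmco3 rose by 0.91 ± 0.13, adjusted p = 0.00528, on the log2 scale, Tacc1 by 1.87 ± 0.25, adjusted p = 0.00406, and Xkr5 by 2.57 ± 0.45, adjusted p = 0.0100. Mfhas1, low in CRISPR_1G2, stood 4.74 ± 0.55, adjusted p = 0.00283, above it in KO_1E7. Mast1 was lower in KO_1E7, at -3.04 ± 0.41, adjusted p = 0.00435, as was Mcf2l, at -2.86 ± 0.44, adjusted p = 0.00655. The largest adjusted p any of the 18 took was 0.0497, for Phkb.

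The largest rises in KO_1E7 against CRISPR_1G2 were in genes almost silent in CRISPR_1G2. D130040H23Rik had 0.137, 0.331 and 0.306 CPM in parental, 0.989, 1.33 and 1.52 in KO_1E7 and 0 counts in all CRISPR_1G2 libraries. Taking 3 counts over the group as the limit, KO_1E7 was at least 39.3-fold higher than CRISPR_1G2, on 156 counts, and passed (adjusted p = 0.00313). Outside KO_1E7 this gene reached 10 counts only in parental 2 and 3 (12 and 11). It met the count filter of 3 libraries only through KO_1E7, where it is high, so its difference carries no test here. Pmfbp1, a sperm head-tail linker gene, had 112 counts in KO_1E7, 2 in parental and 0 in CRISPR_1G2. It was at least 28.2-fold higher in KO_1E7 than in CRISPR_1G2, and its scaled ratio to parental was 50.1 (exact 95% interval 13.5 to 419, counting error only). It reached 10 counts only in KO_1E7, so it was kept as a member through the group in which it is high, and its difference follows from how it was kept and carries no test here.

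Adam18, a member of the ADAM family known from sperm, had 0.847, 0.331 and 1.14 CPM in parental, 1.75, 0.872 and 2.72 in KO_1E7 and 0, 0.126 and 0.0305 in CRISPR_1G2 (4.95 ± 0.88, adjusted p = 0.0109 in KO_1E7 against CRISPR_1G2). Zfp469, a zinc finger gene annotated here as a long noncoding RNA, had 1.37, 0.801 and 1.28 CPM in parental, 4.44, 2.65 and 3.91 in KO_1E7 and 0.0363, 0.221 and 0.183 in CRISPR_1G2 (4.58 ± 0.53, adjusted p = 0.00274). In both CRISPR_1G2 lay below parental and KO_1E7 without overlap, but its difference from parental did not pass (-3.76 ± 0.88, adjusted p = 0.262, and -2.91 ± 0.52, adjusted p = 0.0999). Zfp469 also overlaps Gm20388, a gene model on the same strand that spans several neighbours. The calls of Adam18 and Zfp469 against CRISPR_1G2 passed under every alternative run. So did that of D130040H23Rik, which is no support because the gene met the count filter only through KO_1E7.

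In the other direction, Adgra2, an adhesion G protein-coupled receptor gene of brain vessel growth, had 9.62, 5.25 and 17.8 CPM in parental, 0.424, 2.86 and 0.866 in KO_1E7 and 10.5, 12.1 and 44.3 in CRISPR_1G2 (-3.98 ± 0.87, adjusted p = 0.0220 in KO_1E7 against CRISPR_1G2). KO_1E7 lay below all others, and CRISPR_1G2 3 was far above the rest of its group. Ppp1r3b gave -3.001 ± 0.81, adjusted p = 0.0439 and Vegfc -4.28 ± 0.78, adjusted p = 0.0117. Gm3336, with 4 counts in KO_1E7 and 49 in CRISPR_1G2, gave -3.89 ± 1.01, adjusted p = 0.0391. Outside CRISPR_1G2 it reached 10 counts in parental 3 alone. It therefore met the count filter through the group in which it is high, and its difference carries no test here. For Adgra2, Ppp1r3b and Gm3336, 3 of 3 calls were lost with 1 library left out (adjusted p from 0.0593 to 0.146), and each library but parental 3 ended at least 1 when left out by itself. Without the third library of each group Adgra2 and Ppp1r3b did not pass either. Vegfc was lost without KO_1E7 1 or KO_1E7 3, where its adjusted p reached 0.0603.

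Members also differed by gene type, which was not tested. The 687 tested protein-coding members had a median of 0.37 in KO_1E7 against parental and -0.01 in CRISPR_1G2 against parental, and the 197 others, mostly noncoding genes and pseudogenes, had 0.25 and -0.23. In KO_1E7 against CRISPR_1G2 the order was the other way, with 0.35 in the protein-coding members and 0.49 in the others. The others are also lower in level. Members of the lowest class of level had 0.24 and -0.14 in the comparisons with parental, and 0.39 in KO_1E7 against CRISPR_1G2. Of the 908 members, 553 overlap another annotated gene and may share its reads.

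Not every member could be tested. The 24 untested members did not pass the expression filter of edgeR, and 703 members had 10 or more counts in all 9 libraries. Only in KO_1E7 did 6 members reach 10 counts (Gm6410, Rnf122, 4930555F03Rik, Gm15991, Gm45363 and Pmfbp1), only in parental 2 (Gm2694 and Cdh3), and only in CRISPR_1G2 0. Such genes enter through the group in which they are high and had to differ. Of these 8, 4 were tested and 2, Rnf122 and Pmfbp1, were called in KO_1E7 against parental. At the edge of the count filter, in 22 genes the third-highest count was exactly 10 and they were kept, among them Cdh3, P-cadherin (10, 10 and 10 counts in parental, 2, 6 and 8 in KO_1E7, 5, 2 and 6 in CRISPR_1G2). Where the third-highest count was 9, 19 genes were left out, among them Il27ra, an interleukin receptor gene (8, 5 and 11 counts in parental, 3, 9 and 1 in KO_1E7, 4, 14 and 6 in CRISPR_1G2).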

How the data were processed

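The authors deposited unnormalized read counts per gene for 9 poly(A) RNA libraries. Per the labels' protocols, libraries were made by oligo(dT) enrichment with NEBNext Ultra II. The submitters' processing notes name bcl2fastq 2.17, STAR 2.5.2b, featureCounts of Subread 1.5.2, DESeq2 and GRCm38; no source used here gives the annotation release or the strand setting. Counts on 92 spike-in controls were left out. The per-sample tables and the series table differed in 0 cells, and all 908 members were found on chromosome 8 of GENCODE M21.

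All 15766 genes passing the expression filter of edgeR 4.0.16 in R 4.3.3 were fitted with all 9 libraries (TMM scaling, robust quasi-likelihood F-test), and p-values were adjusted by Benjamini-Hochberg over all of them, with calls at 0.05. CPM use TMM library sizes, and log2 CPM a prior count of 2. Centred values are less the median of all genes tested. Exact intervals are at the 95% level. The test was tried on simulated data. An exact permutation test of 3 libraries against 3 has a smallest p of 0.1 and was not used; single genes were tested by the fit over all genes.

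The members, role lists and the rule for named genes were chosen with earlier results of these data known. Named were, among members called in KO_1E7 against parental without overlap and with a mean of at least 1 CPM, the 10 largest rises and 6 largest falls; the 5 largest in each direction of the other comparisons; and, from each role list, the called members (the 4 highest in level if more) or else the 1 or 2 highest in level; and the members nearest the first and last position.

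Replicate numbers were checked for pairing. In CRISPR_1G2 against parental, libraries of the same number deviated together (correlations of 0.243, 0.469 and 0.647). The main fit held no term for the number, so the values and p-values given for this comparison are unpaired. The number entered only as a block in an alternative run. CRISPR_1G2 1 nevertheless followed parental 2 more closely (0.540), with which its deposited name shares a date, CRISPR_1G2 2 correlated with parental 1 at 0.136, and no label says what a number marks. In KO_1E7 the correlations were -0.00342, 0.0563 and 0.153 with parental and -0.0497, 0.127 and 0.0727 with CRISPR_1G2, so the numbers were not taken as pairs. Alternatives covered scaling, the filter, DESeq2 1.42.0, the samples fitted, the block, window size and each library left out; leaving out parental 3 and CRISPR_1G2 3 together, and dividing the chromosome at 70 Mb, were added after seeing the data.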

Additional observations from a re-analysis of the deposited data

How the results depend on the processing

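The chromosome medians kept their direction and stayed within the spread between libraries under every alternative: 0.32 to 0.38 for KO_1E7 against parental, -0.04 to -0.02 for CRISPR_1G2 against parental and 0.34 to 0.42 for KO_1E7 against CRISPR_1G2 when 1 library was left out. Total counts in place of TMM scaling moved the median of all genes from 0.02 to 0.11 in CRISPR_1G2 against parental, which the centred values remove. Counts of called members were less stable, and the cause was not tested. For KO_1E7 against parental, 84 members became 42 with total counts (4.75%, beside 3.11% of all genes tested). There were 38 with no filter (4.19%, beside 1.76%) and 165 with DESeq2 (18.2%, beside 6.63%). Without the third library of each group there were 176 (20.1%, beside 11.0%). Without parental 3 and CRISPR_1G2 3 there were 277 (31.3%, beside 21.03%). Leaving out 1 library gave 0 to 174 (0% to 19.4%, beside 0.145% to 12.2%). For CRISPR_1G2 against parental, 2 became 7 with DESeq2 (0.773%, beside 0.579%) and 4 with no filter (0.441%, beside 0.168%). In every comparison, DESeq2 and the run with no filter also tested genes that the filter removes. Their shares of all genes thus rest on a larger base than the other shares, and nothing is read from them. In edgeR with only the 6 libraries of both groups there were 0 (beside 0.106%), with 33 at an unadjusted p below 0.05. With 1 library left out there were 1 to 2 (0.111% to 0.224%, beside 0.0902% to 0.432%). For KO_1E7 against CRISPR_1G2, 154 became 102 with total counts, 100 with no filter, 263 without the third libraries, 363 without parental 3 and CRISPR_1G2 3, and 27 to 194 with 1 library left out.

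With the replicate number as a block the counts were 123, 2 and 204, none moved by over 1.5 times. These were 13.9%, 0.226% and 23.1% of members, beside 8.23%, 0.235% and 16.6% of all genes tested. Lrp2bp, Nqo1 and Prag1 against parental and Cnot1 against CRISPR_1G2 no longer passed. In windows of 5 Mb the lowest median turned to -0.63 (from 0.23) for KO_1E7 against parental and to -0.65 (from 0.29) against CRISPR_1G2, both from the thinly filled 35 to 40 Mb window; in CRISPR_1G2 against parental it went from -0.08 to -0.22, or to -0.052 with members at 10 counts in all 9 libraries, and the share of windows above 0 from 23.1% to 14.3% with 20 Mb windows. Measured by summed shares of counts, the level difference was 0.48 in place of 0.33 for KO_1E7 against parental, and turned from -0.03 to 0.093 for CRISPR_1G2 against parental; parental 3, with its large CT010467.1 fraction, enters those sums. Of 31 named calls against parental 0 held under every alternative, and of 48 against CRISPR_1G2 18 did. At low counts, as in Vegfc, Gm3336 and Pmfbp1, depth limits the size of a difference.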
